A study of Mus musculus with 8 samples.

Results

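The 9 genes described here carry the insulin signal from the cell surface to glucose uptake. They are Insr, Irs1, Irs2, Pik3r1, Akt1, Akt2, Foxo1, Tbc1d4 and Slc2a4. They were chosen by name for their place in the pathway, not by a cut on measured values, and are 9 of 37046 gene-level features. Earlier results of these data were known at the choice. Gene positions are those of GENCODE M21 on GRCm38. All 9 were abundant enough to be among the 15184 genes tested.

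Insulin binds its receptor tyrosine kinase, which phosphorylates the docking proteins IRS1 and IRS2. These recruit phosphoinositide 3-kinase, and the lipid it makes activates AKT kinases, which restrain the transcription factor FOXO1 and the GTPase-activating protein TBC1D4. In fat cells the release of TBC1D4's brake lets vesicles carrying the glucose transporter GLUT4, the product of Slc2a4, reach the plasma membrane. Most of this control works through phosphorylation and protein movement, neither of which is seen in messenger RNA.

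The endostatin group held 4 libraries from white fat of female C57BL/6J mice given endostatin, the anti-angiogenic fragment of collagen XVIII, at 50 mg/kg into the tail vein. The control group held 4 libraries from mice given phosphate-buffered saline (PBS) in the same way. In both groups the tissue, labelled epididymal although the mice are labelled female, was taken 2 h after the injection. The labels give no genetic change in either group, and the mice's age is not given in the sources used here. Replicates 1 and 2 of each group belonged to batch 1 and replicates 3 and 4 to batch 2. The labels do not tie the libraries to separate animals, so p-values measure only the spread between these libraries, which may be technical.

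RNA was sequenced in bulk, and the deposited values were Salmon's estimated counts and TPM, transcript abundance scaled for length and depth. Estimated counts summed to 17197721 to 23786594 per endostatin library and 15826783 to 19221886 per control library. All libraries carried the adipocyte programme: summed adipocyte markers reached 41220 to 46650 TPM in endostatin libraries and 27750 to 53430 TPM in control libraries, the lowest being control replicate 3. The libraries also differed in RNA of other tissues. Skeletal muscle markers (14 genes) summed to 54.36 to 109.4 TPM with endostatin and 35.98 to 507.9 TPM with PBS, with control replicates 1 and 4 highest. Oviduct and uterus markers summed to 830.6 TPM in endostatin replicate 4 and 1192 TPM in control replicate 3, and nowhere else above 168.7 TPM. In bulk tissue, fewer cells of a type and less RNA per cell cannot be told apart.

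None of the 9 genes passed an adjusted p of 0.05 between endostatin and control fat (edgeR quasi-likelihood test with batch as a term, Benjamini-Hochberg adjustment over 15184 genes; every member's adjusted p was 1.00). No gene at all passed: 0 of 15184, or 0%, and the lowest adjusted p was 0.409. By other tools, limma-voom called 0 genes, limma-voom with quality weights 1 and DESeq2 3 higher and 1 lower, none of them a member. At an unadjusted p under 0.05, 3.19% of tested genes passed, 2.3% higher and 0.896% lower with endostatin, and of the members only Irs2 did. Fold changes were positive for 3 members and negative for 6, with a median log2 fold change of -0.03, beside 46.6% positive and a median of -0.01 over all tested genes. The precision bounds these statements. Among genes at 10 CPM (counts scaled to TMM-adjusted library size) or more, the 95% interval typically reached 0.30 to either side of the log2 fold change (median).

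**Figure D1:**
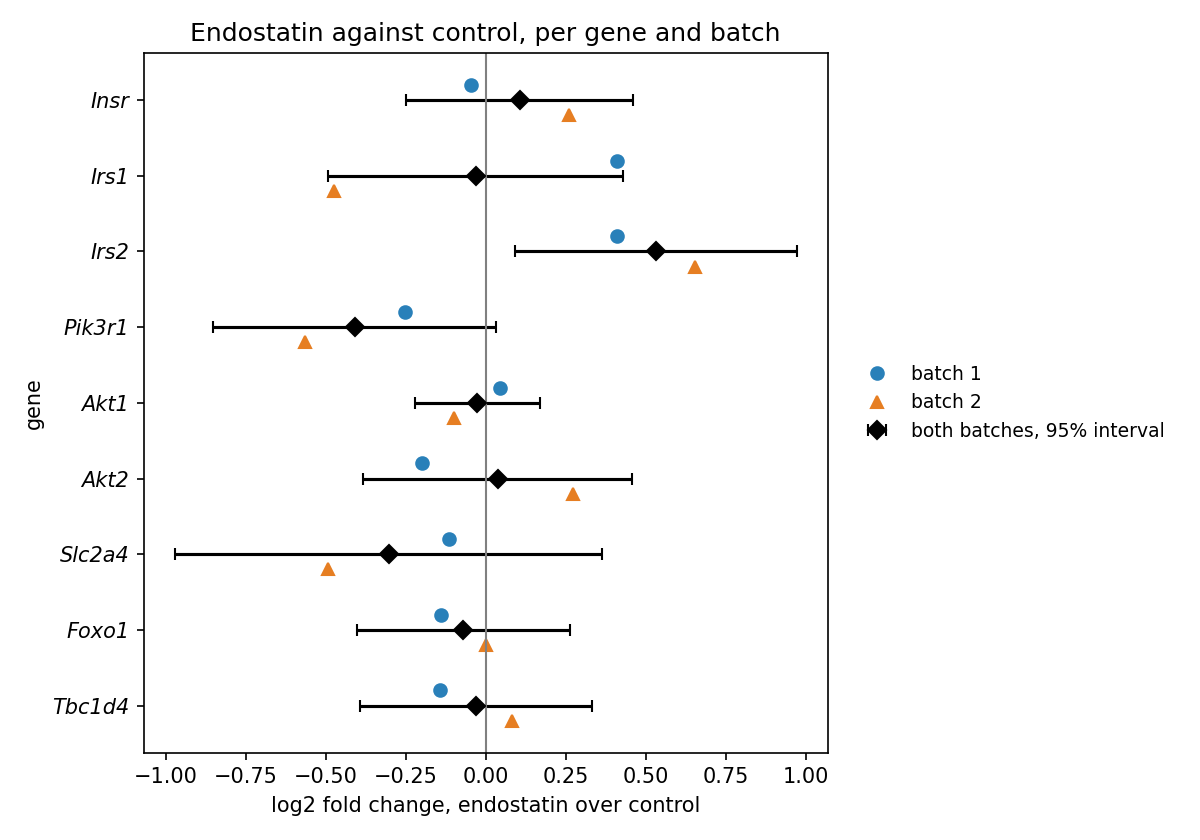
Log2 fold change, endostatin over control, of the 9 genes, with black diamonds and 95% intervals for both batches together (edgeR), blue circles for batch 1 and orange triangles for batch 2. The interval of Irs2 runs from 0.09 to 0.97, those of the other 8 genes include 0, and the batches lie on opposite sides of 0 for Irs1 at 0.41 and -0.47.

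Levels were compared between genes per transcript length, in TPM. Averaged over all 8 libraries, Akt2 was the most abundant at 277.1 TPM, followed by Slc2a4 at 206.6 TPM and Pik3r1 at 174.7 TPM. Insr averaged 127.9 TPM and Akt1 103.1 TPM. The 2 IRS genes, Foxo1 and Tbc1d4 lay lower, at 53.73 TPM for Irs1, 48.37 TPM for Irs2, 43.55 TPM for Foxo1 and 40.39 TPM for Tbc1d4. Neighbours in this order overlapped in their ranges except at a single step: Akt1 lay above Irs1 in 8 of 8 libraries, with no overlap. Irs1 exceeded Irs2 in only 5 of 8 libraries, so their order is not resolved.

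**Figure D2:**
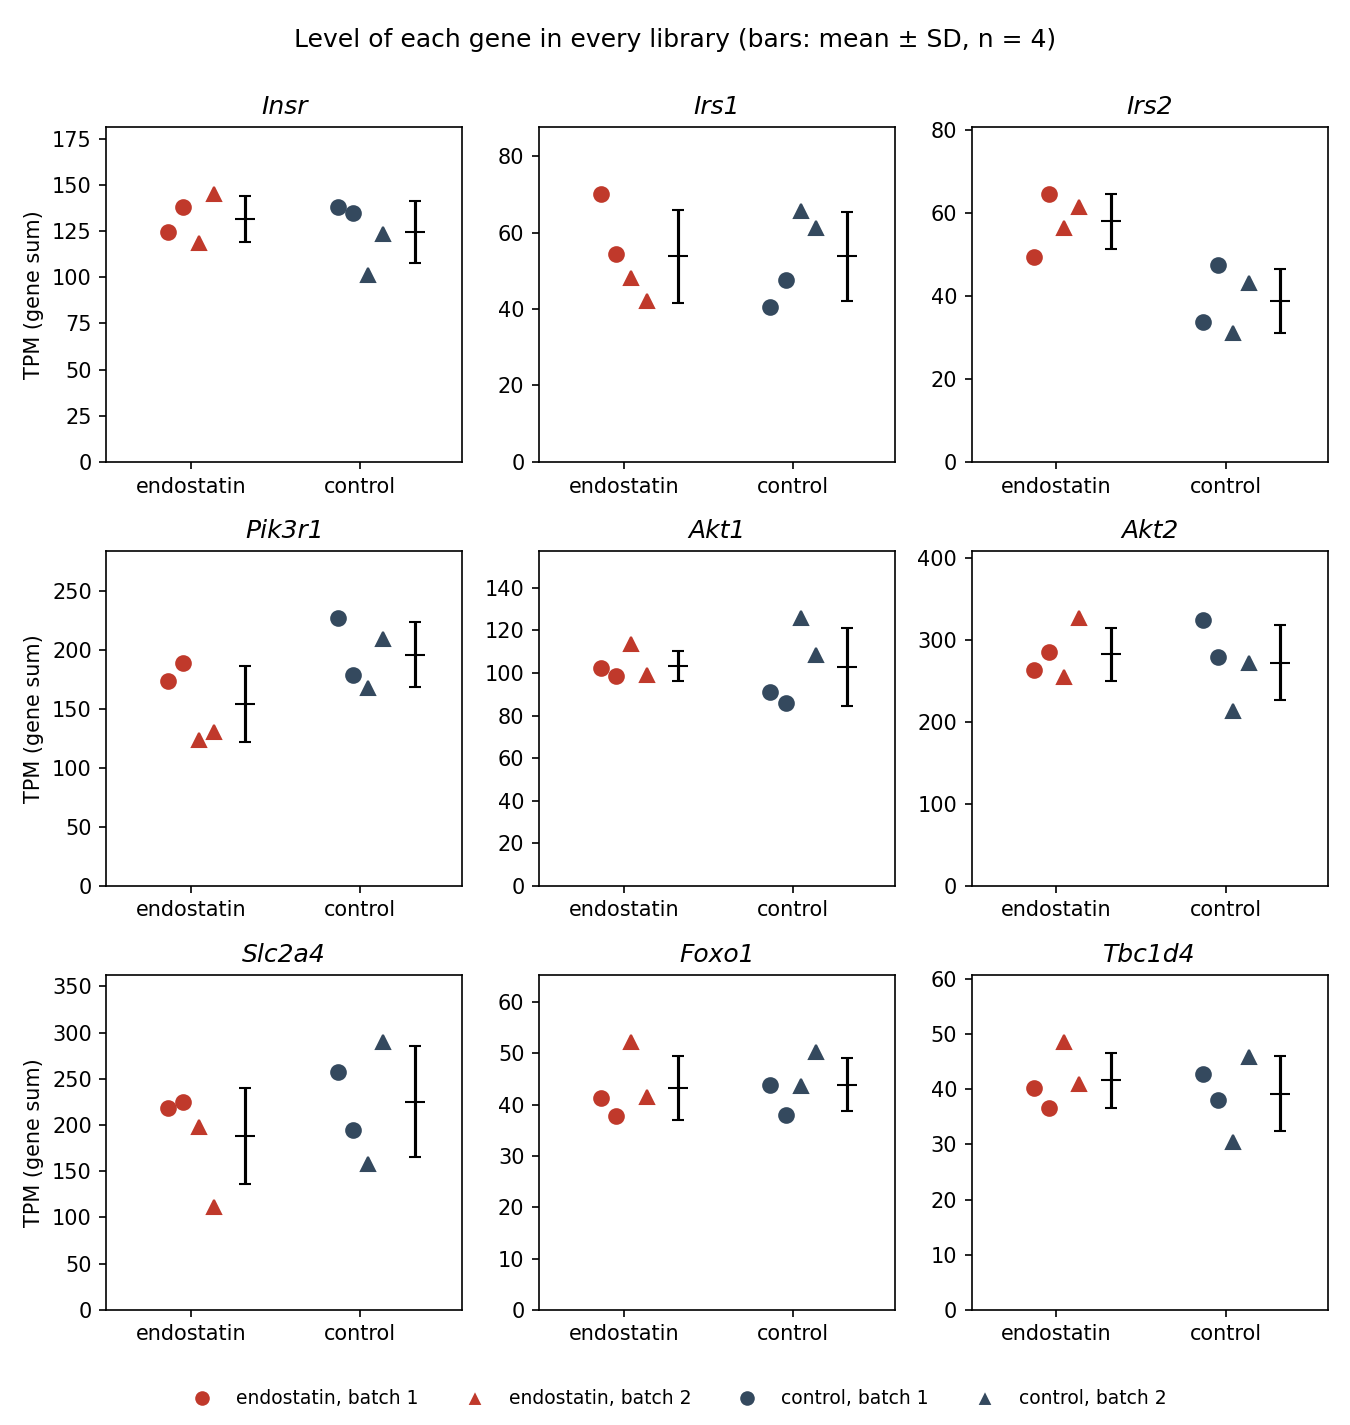
TPM of each of the 9 genes, 1 panel a gene with its own axis from 0, with endostatin libraries in red to the left of control libraries in dark blue, circles for batch 1, triangles for batch 2 and bars for the mean ± SD of 4. The endostatin libraries of Irs2 (49.25 to 64.60 TPM) all lie above its control libraries (31.13 to 47.38 TPM), and in the other 8 panels the groups overlap.

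Insr encodes the insulin receptor (ENSMUSG00000005534, chr8:3122061-3279617, minus strand). Its level was 124.5, 138.1, 118.4 and 145.2 TPM in endostatin libraries, against 138.0, 134.8, 101.0 and 123.4 TPM in control libraries. The groups overlapped, and control replicate 3 was the lowest library. The log2 fold change was 0.11 ± 0.15 (SE, n = 4 each; unadjusted p = 0.513 by edgeR), with a 95% interval of -0.25 to 0.46.

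The receptor is made with or without exon 11, a 36-base exon whose inclusion sets the B or A form and whose 12 codons lie near the end of the insulin-binding subunit. It is shown because the transcripts that hold and lack it were quantified separately. The sequences are read from GRCm38, where the exon is chr8:3181702-3181737 on the minus strand, with the exon in capitals and the adjoining 30 bases of exons 10 and 12 in lower case.
Insr with exon 11: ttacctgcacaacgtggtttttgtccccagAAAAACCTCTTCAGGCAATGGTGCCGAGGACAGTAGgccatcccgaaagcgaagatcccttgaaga
Insr without exon 11: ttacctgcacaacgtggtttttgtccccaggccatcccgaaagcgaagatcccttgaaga
The annotated full-length coding transcript, Insr-201 (9355 bases, 1372 codons), lacks the exon. It had 51.5, 59.7, 45.2 and 61.7 TPM in endostatin libraries, against 52.8, 54.0, 41.7 and 47.9 TPM in control libraries. The transcript that holds the exon, Insr-203, is an annotated fragment of 672 bases, with 49.9, 45.7, 33.4 and 42.8 TPM in endostatin libraries and 53.2, 48.4, 33.7 and 40.8 TPM in control libraries. The ranges overlapped for both transcripts. Insr-203 took 32.7 ± 5.31% of the gene's TPM with endostatin and 35.2 ± 2.57% with PBS (SD, n = 4 each; exact permutation p = 0.457, two-sided). Because that fragment covers only 5 exons, its share is no direct measure of exon 11 inclusion.

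Irs2 (ENSMUSG00000038894, chr8:10984681-11008458, minus strand) encodes the docking protein whose transcription is known, from liver, to be switched on by FOXO1 in fasting. Its level was 49.25, 64.60, 56.40 and 61.45 TPM in endostatin libraries, against 33.60, 47.38, 31.13 and 43.15 TPM in control libraries. Every endostatin library lay above every control library in TPM, a separation in this direction that 1.34% of all tested genes showed in TPM and 0.942% in CPM. In CPM, scaled to TMM-adjusted library size, the groups of Irs2 overlapped slightly. The lowest endostatin library had 179.1 CPM and the highest control library 181.4 CPM. Irs2 was listed with a single transcript, so its separation depended on how the libraries were scaled. The log2 fold change was 0.53 ± 0.19 (SE, n = 4 each) with a 95% interval of 0.09 to 0.97, an unadjusted p of 0.0239 and an adjusted p of 1.00 by edgeR. The difference therefore did not pass the threshold over all genes. It was 0.41 in batch 1 and 0.65 in batch 2, and it was 0.36 without control replicate 3, the lowest control library.

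Marker sums of other cell types were set beside Irs2. Macrophage markers (10 genes, none at 0 in any library) summed to 1075, 1135, 1855 and 1896 TPM in endostatin libraries, against 863.8, 1273, 960.1 and 1035 TPM in control libraries. In batch 1 the macrophage sums of the groups overlapped. Irs2 in that batch was 49.25 and 64.60 TPM with endostatin and 33.60 and 47.38 TPM with PBS. In CPM its groups overlapped there too, at 179.1 and 239.7 CPM with endostatin and 134.3 and 181.4 CPM with PBS. Hepatocyte markers other than Cyp2e1, which fat also expresses, summed to 339.5, 518.0, 24.83 and 987.1 TPM in endostatin libraries, against 147.0, 100.8, 20.59 and 30.02 TPM in control libraries. The parts of macrophage and hepatocyte RNA in the Irs2 difference were not tested. As log2 TPM minus the mean log2 TPM of the 12 adipocyte markers of the same library, in which each marker weighs the same, Irs2 was -4.29 ± 0.13 with endostatin and -4.95 ± 0.22 with PBS (SD, n = 4 each), a difference of 0.66. The groups did not overlap on this scale, but the share of all tested genes that separate on it was not counted. The exact two-sided permutation p was 0.0286, the smallest that 70 splits allow, and the test took no account of batch. Cidea, the least abundant of the 12, is also a marker of brown and beige fat. Its level ran from 0.82 TPM in endostatin replicate 3 to 38.3 TPM in control replicate 3. The difference in Irs2 was 0.51 with Cidea left out, and 0.56 against the log2 of the markers' summed TPM. Both settings were chosen after the data were seen, and both left the groups apart, again without a count over all tested genes. Irs2 was 1 of 9 genes so tested, and none passed 0.05 after Benjamini-Hochberg adjustment for the 9 tests.

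Irs1 (ENSMUSG00000055980, chr1:82233101-82291416, minus strand) encodes the other main docking protein, long regarded as the chief one in fat and muscle. Its level was 70.18, 54.40, 48.14 and 42.20 TPM in endostatin libraries, against 40.53, 47.63, 65.52 and 61.27 TPM in control libraries. Both endostatin libraries of batch 1 lay above both controls of that batch, and both of batch 2 lay below. The pooled log2 fold change was -0.03 ± 0.20 (SE, n = 4 each; unadjusted p = 0.874 by edgeR), made of 0.41 in batch 1 and -0.47 in batch 2. The difference between the batches was -0.88 ± 0.26 (SE; edgeR interaction test, unadjusted p = 0.0110, adjusted p = 0.997). At an unadjusted p under 0.05, 3.47% of tested genes differed between batches in this way, and 2.63% had every endostatin library above the controls in batch 1 and below them in batch 2.

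The ratio of Irs2 to Irs1 TPM was 0.702, 1.19, 1.17 and 1.46 in endostatin libraries, against 0.829, 0.995, 0.475 and 0.704 in control libraries. It was above 1 in 3 of 4 endostatin libraries and 0 of 4 control libraries, and the ranges overlapped through endostatin replicate 1. Irs3, a further docking protein present in mouse fat but not part of the 9, averaged 53.4 ± 8.24 TPM with endostatin and 48.5 ± 15.4 TPM with PBS (SD, n = 4 each). It was chosen for mention after its values were seen, and its log2 fold change was 0.08 ± 0.25 (SE).

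The windows of 250 bases before the RefSeq starts of the IRS genes are shown because both hold the same pair of short motifs. They come from RefSeq's promoter table for GRCm38.p6, Irs2 from chr8:11008930-11009179 and Irs1 from chr1:82291440-82291689, both on the minus strand. Capitals mark CACGTG, a palindromic E-box, and TGTTTTG, a core of insulin response elements bound by FOXO factors. The motifs were picked after the sequences had been read.
Irs2: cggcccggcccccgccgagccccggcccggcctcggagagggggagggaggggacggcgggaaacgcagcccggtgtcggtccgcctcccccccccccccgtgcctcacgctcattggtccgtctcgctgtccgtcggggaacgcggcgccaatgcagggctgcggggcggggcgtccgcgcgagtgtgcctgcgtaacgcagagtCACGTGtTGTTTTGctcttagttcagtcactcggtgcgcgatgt
Irs1: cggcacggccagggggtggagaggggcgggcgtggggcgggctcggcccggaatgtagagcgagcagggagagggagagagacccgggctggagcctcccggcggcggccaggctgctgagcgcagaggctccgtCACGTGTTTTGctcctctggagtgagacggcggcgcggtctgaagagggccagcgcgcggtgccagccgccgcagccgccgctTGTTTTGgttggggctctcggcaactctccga
In Irs2 the E-box lies 44 to 39 bases and TGTTTTG 37 to 31 bases before the start. In Irs1 the E-box lies 115 to 110 bases before it, overlapping the insulin response core at 111 to 105, and a further copy of that core lies at 32 to 26. Among 32851 promoter windows of the same length, searched on both strands, 6.02% held CACGTG, 5.56% TGTTTTG and 0.295% both. Of the 12 windows that cover 7 of the 9 genes, those of Irs1 and Irs2 were the ones with either motif. The forkhead consensus TGTTTAC was in 3.17% of all windows and, among the 12, in 1 window of Akt1. The sterol-responsive motif TCACNCCAC was in 1.05% of all windows and in 0 of the 12. A match is a description of these letters, and the data hold no measure of binding there.

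Pik3r1 (ENSMUSG00000041417, chr13:101680563-101768217, minus strand) encodes the regulatory subunits that tie phosphoinositide 3-kinase to the IRS proteins. Its level was 173.2, 188.6, 123.5 and 130.0 TPM in endostatin libraries, against 227.1, 178.8, 167.1 and 209.2 TPM in control libraries. Endostatin replicates 3 and 4 lay below every control, and endostatin replicates 1 and 2 lay among the controls. The log2 fold change was -0.41 ± 0.19 (SE, n = 4 each) with a 95% interval of -0.85 to 0.03, an unadjusted p of 0.0650 and an adjusted p of 1.00 by edgeR. It was -0.25 in batch 1 and -0.57 in batch 2. It rested in part on control replicates 1 and 4, the controls with the most Pik3r1 and with skeletal muscle marker sums of 267.1 and 507.9 TPM. Without control replicate 4 it was -0.21, and without both it was -0.08. The part of muscle RNA in this difference was not tested.

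Pik3r1 gives rise to a long and a short regulatory subunit from separate starts. The transcript of the long form, Pik3r1-202 (724 codons), took 71.3 ± 4.08% of the gene's TPM with endostatin and 70.7 ± 5.12% with PBS. The transcript of a shorter form, Pik3r1-201 (454 codons), took 7.88 ± 1.82% with endostatin and 6.87 ± 1.20% with PBS (SD, n = 4 each). The long form led in both groups, and the shares overlapped. Pik3r2, the gene of a second regulatory subunit, had a log2 fold change of 0.01.

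Akt2 (ENSMUSG00000004056, chr7:27591552-27640826, plus strand) encodes the AKT kinase that matters most for glucose uptake in mouse fat. Its level was 263.4, 284.7, 254.3 and 326.9 TPM in endostatin libraries, against 324.3, 278.6, 213.7 and 271.1 TPM in control libraries. The groups overlapped, and the log2 fold change was 0.04 ± 0.18 (SE, n = 4 each; unadjusted p = 0.844 by edgeR). Akt1 (ENSMUSG00000001729, chr12:112653821-112674884, minus strand), the kinase tied more to growth and survival, had 102.1, 98.53, 113.5 and 99.17 TPM in endostatin libraries, against 91.09, 85.93, 126.0 and 108.2 TPM in control libraries. The Akt1 log2 fold change was -0.03 ± 0.08 with the narrowest interval of the 9 genes, -0.22 to 0.17. Akt2 exceeded Akt1 in every library, by 2.58, 2.89, 2.24 and 3.3 times with endostatin and 3.56, 3.24, 1.7 and 2.51 times with PBS. The lowest ratio belonged to control replicate 3, the library with the lowest adipocyte marker sum.

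Foxo1 (ENSMUSG00000044167, chr3:52268336-52353221, plus strand) encodes the forkhead factor that AKT keeps out of the nucleus. Its level was 41.28, 37.83, 52.27 and 41.42 TPM in endostatin libraries, against 43.82, 37.88, 43.54 and 50.33 TPM in control libraries, and the groups overlapped. The log2 fold change was -0.07 ± 0.14 (SE, n = 4 each; unadjusted p = 0.639 by edgeR).

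Tbc1d4 (ENSMUSG00000033083, chr14:101442360-101609191, minus strand), also called AS160, holds GLUT4 vesicles back until AKT phosphorylates it. Its level was 40.17, 36.64, 48.61 and 40.92 TPM in endostatin libraries, against 42.70, 37.95, 30.36 and 45.81 TPM in control libraries. The groups overlapped, and the log2 fold change was -0.03 ± 0.16 (SE, n = 4 each; unadjusted p = 0.846 by edgeR). Its most abundant transcript was the one without the extra exons of the long form. Tbc1d4-209 (1243 codons) took 57.0 ± 8.47% of the gene's TPM with endostatin and 63.3 ± 8.18% with PBS (SD, n = 4 each). The long form, Tbc1d4-210 (1306 codons), had 1.83 TPM in endostatin replicate 1 and was listed at 0 in the other 7 libraries.

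Slc2a4 (ENSMUSG00000018566, chr11:69942539-69948188, minus strand) encodes GLUT4, the insulin-responsive glucose transporter of fat and muscle. Its level was 217.9, 225.1, 197.7 and 111.8 TPM in endostatin libraries, against 257.8, 194.5, 157.7 and 290.2 TPM in control libraries. Endostatin replicate 4 was the lowest library and control replicate 4 the highest, and the groups overlapped. The log2 fold change was -0.30 ± 0.29 (SE, n = 4 each; unadjusted p = 0.324 by edgeR) with a 95% interval of -0.97 to 0.36, the widest of the 9 genes. Single libraries decided its value: it was 0.01 without control replicate 4 and -0.12 without endostatin replicate 4. Muscle also expresses Slc2a4, and the 2 controls with the highest muscle marker sums, replicates 1 and 4, were the 2 highest for Slc2a4. Without both of them the log2 fold change was 0.16. The part of muscle RNA in these levels was not tested. Ckm, the muscle creatine kinase, was at 1.15, 3.4, 0.477 and 0.858 TPM in endostatin libraries, against 35.1, 0.462, 0.0841 and 57.0 TPM in control libraries. Slc2a1, the basal glucose transporter gene, averaged 9.58 TPM with endostatin and 9.86 TPM with PBS, far under Slc2a4.

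**Figure D3:**
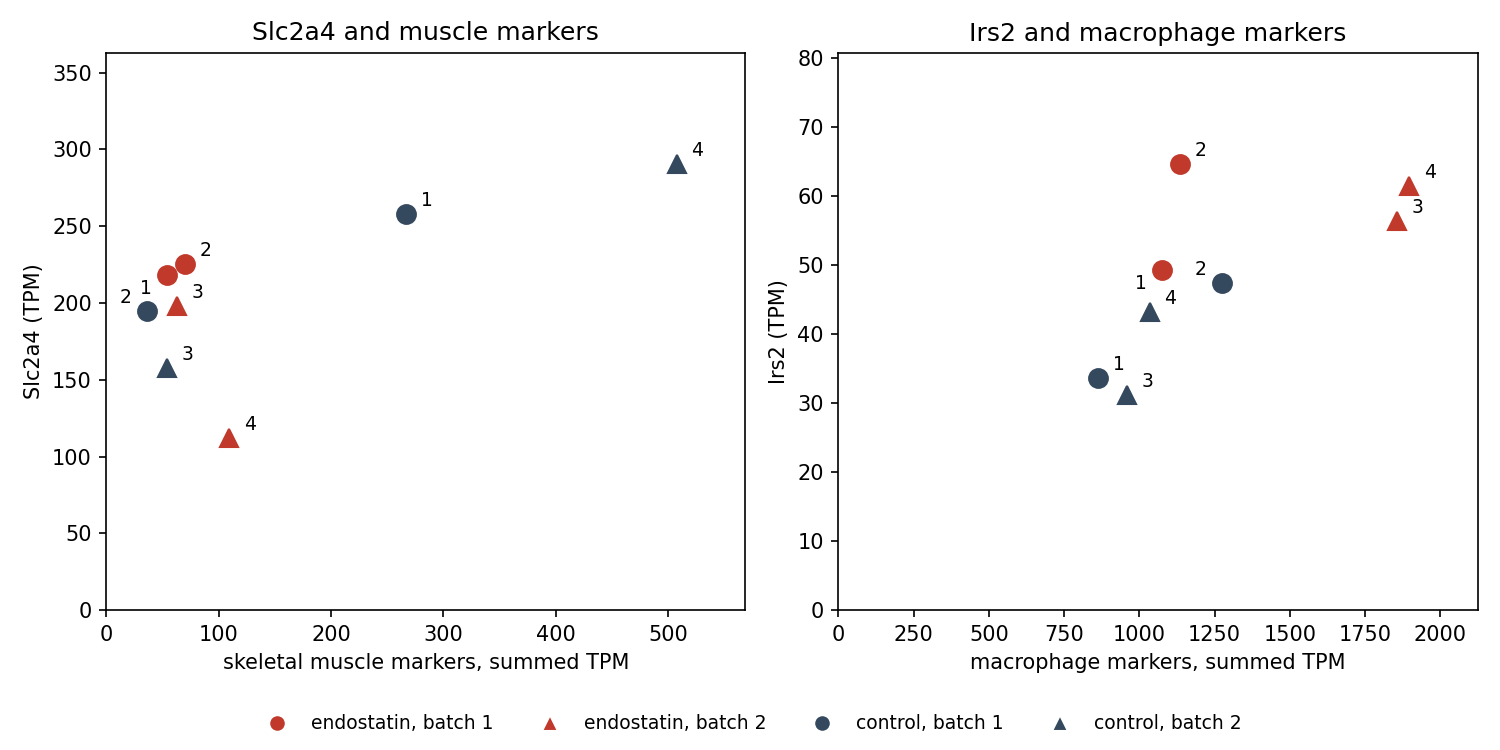
Slc2a4 TPM against the summed TPM of skeletal muscle markers (left panel) and Irs2 TPM against the summed TPM of macrophage markers (right panel), with 1 point per library labelled by its replicate number, red for endostatin, dark blue for control, circles for batch 1 and triangles for batch 2. Control replicates 1 and 4 lie highest on both axes of the left panel, and endostatin replicates 3 and 4 lie farthest right in the right panel at 1855 and 1896 TPM of macrophage markers.

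In all, 15 transcripts of 6 of the genes held at least 5% of their gene's TPM beside another transcript, and their shares were compared between the groups. The lowest exact permutation p (two-sided, 70 splits) was 0.0571, for Slc2a4-201, which took 84.6 ± 1.87% with endostatin and 81.9 ± 1.35% with PBS (SD, n = 4 each). No share passed 0.05, before or after adjustment.

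**Figure D4:**
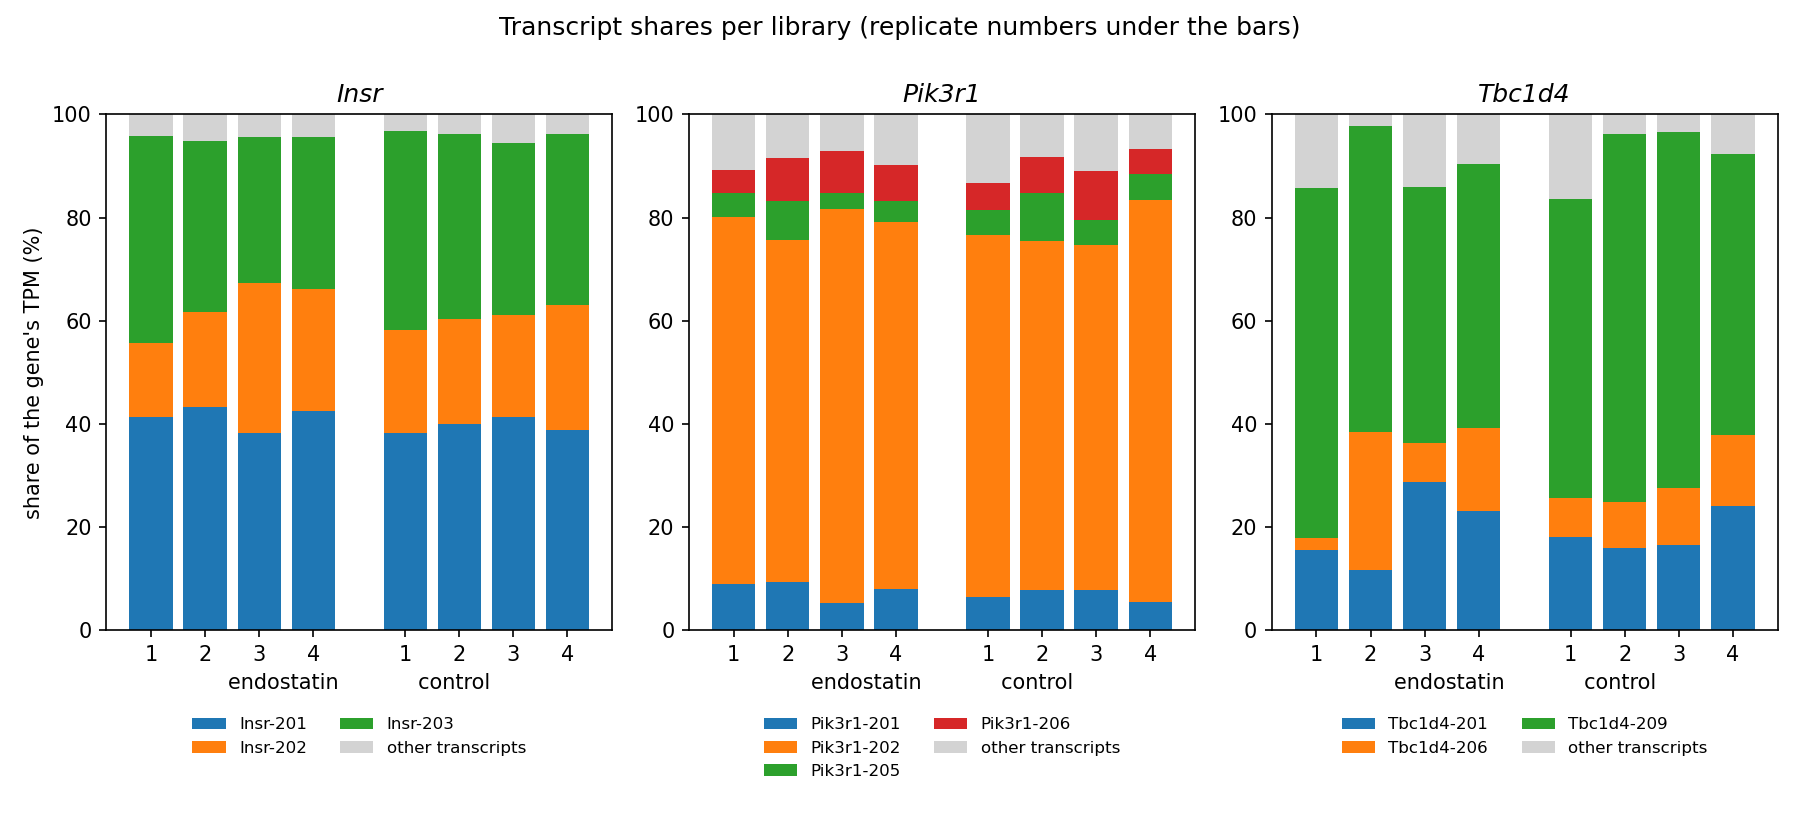
Stacked shares, in percent of the gene's TPM, of the main transcripts of Insr, Pik3r1 and Tbc1d4 in each library, 1 bar a library with its replicate number, endostatin to the left of control and the remaining transcripts in grey. Pik3r1-202 is the largest block of its gene in every library, with a mean of 71.3% with endostatin and 70.7% with PBS.

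The genes most like Irs2 across the 8 libraries, by the mean absolute difference of centred log2 CPM among 9987 genes at 10 CPM or more, were Cd33 (0.121), Vsir (0.136) and Lcp1 (0.14). For comparison, Irs2's own mean absolute deviation was 0.30. Cd33 encodes a sialic acid-binding receptor of myeloid cells, Vsir an immune checkpoint receptor and Lcp1 an actin-bundling protein of leukocytes. Their log2 fold changes were 0.49, 0.47 and 0.34. Likeness was measured across both groups, so fold changes in the direction of Irs2 came with the choice of these genes. The genes most like Slc2a4 were Hspb6, encoding a small heat shock protein (0.0872), Pex16, encoding a peroxisome assembly protein (0.0945), and Arhgap24 (0.0951). Slc2a4's own deviation was 0.36. These lists describe 8 libraries and carry no test.

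Around the 9 genes, 5 lists of 124 genes in all covered the rest of the pathway. Of these, 121 were tested and 0 passed the adjusted threshold. At an unadjusted p under 0.05, 1 was higher and 2 were lower with endostatin, a share near the 3.19% over all tested genes.

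Other positive components of insulin signalling had 13 positive and 12 negative fold changes among 25 tested of 26, with a median log2 fold change of 0.01. Those with the lowest unadjusted p were Dok1, a docking protein, at 0.42 ± 0.21, and Sh2b2, an adaptor of the insulin receptor, at -0.42 ± 0.21 (SE). Sh2b2 was 75.7 ± 7.47 CPM with endostatin and 101.3 ± 31.7 CPM with PBS (SD, n = 4 each), and control replicates 1 and 4 were its 2 highest libraries. Irs4 was too low to test.

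Inhibitors of the pathway had 13 positive and 12 negative fold changes among 25 tested. Ide, the insulin-degrading enzyme, was 80.5 ± 10.2 CPM with endostatin and 124.5 ± 21.1 CPM with PBS (SD, n = 4 each), with all endostatin libraries (69.2 to 93.7 CPM) below all control libraries (98.2 to 149.7 CPM). A separation in this direction was seen in 0.698% of tested genes. In TPM the Ide groups overlapped, with 34.81, 36.88, 36.8 and 48.44 TPM in endostatin libraries, against 34.61, 53.3, 82.89 and 55.86 TPM in control libraries, where replicate 1 was the lowest of all 8. The log2 fold change of Ide was -0.62 ± 0.14 (SE; edgeR, unadjusted p = 0.00189, adjusted p = 1.00). Inpp5d, the lipid phosphatase SHIP1 of blood cells, was 44.7 ± 11.1 CPM with endostatin and 32.2 ± 5.59 CPM with PBS, a log2 fold change of 0.44 ± 0.17 (SE; edgeR, unadjusted p = 0.0305). Its highest libraries, endostatin replicates 3 and 4 at 48.3 and 58.6 CPM, were also the highest for macrophage markers. The part of macrophages in this difference was not tested.

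GLUT4 vesicle traffic and glucose entry genes had 14 positive and 13 negative fold changes among 27 tested, with a median log2 fold change of 0.00056. Snap23, a membrane-fusion protein, was 49.2 ± 3.42 CPM with endostatin and 43.7 ± 2.74 CPM with PBS (SD, n = 4 each), a log2 fold change of 0.17 ± 0.09 (SE). Slc2a3, a high-affinity glucose transporter, was 17.0 ± 7.02 CPM with endostatin and 32.1 ± 27.3 CPM with PBS. Its log2 fold change was -0.81 ± 0.35 (SE; edgeR, unadjusted p = 0.0494), with -0.55 in batch 1 and -1.07 in batch 2. Control replicate 3, in batch 2, was its highest library at 72.7 CPM and the library with the most oviduct and uterus markers. The part of oviduct and uterus RNA in this difference was not tested. Hk2, which traps glucose as its phosphate, had a log2 fold change of -0.28 ± 0.21 (SE).

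FOXO factors and their targets had 17 positive and 9 negative fold changes among 26 tested of 28, with a median log2 fold change of 0.11. That median differed in sign between the batches, being -0.14 for batch 1 and 0.30 for batch 2. It was -0.03 without control replicate 3, -0.01 without endostatin replicate 4 and -0.09 without both. Txnip, which restrains glucose uptake, was 1698 ± 523 CPM with endostatin and 1264 ± 322 CPM with PBS (SD, n = 4 each), and Cdkn1a, a cell cycle inhibitor, was 28.6 ± 15.1 CPM with endostatin and 19.3 ± 3.58 CPM with PBS. Among the negative fold changes, Foxo6 at -0.39 ± 0.39 and Bcl6 at -0.37 ± 0.41 (log2, SE) had the lowest unadjusted p. None of these genes passed an unadjusted p of 0.05 by edgeR. G6pc, the glucose-releasing phosphatase of liver, and Igfbp1, a liver-secreted binding protein, were too low to test. They summed to 160 and 41 estimated counts over the endostatin libraries and 10 and 2 over the control libraries, beside the hepatocyte marker sums given above.

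Insulin-induced lipid and glucose genes had 1 positive and 17 negative fold changes among 18 tested, with a median log2 fold change of -0.41, beside -0.01 over all tested genes. By edgeR 0 of 18 passed an unadjusted p of 0.05. Taken by batch, batch 1 had a median of 0.05 and batch 2 one of -0.62. Single libraries moved it too: it was -0.07 without endostatin replicate 4, -0.22 without control replicate 4 and -0.25 without control replicate 1. Without control replicates 1 and 4, those with the most muscle marker RNA, the list's median was 0.06, and without control replicate 3 and endostatin replicate 4 it was -0.14. The part of muscle RNA in this list was not tested. Insig1, a feedback regulator of sterol synthesis, was 172.2 ± 47.1 CPM with endostatin and 283.9 ± 142 CPM with PBS (SD, n = 4 each), a log2 fold change of -0.68 ± 0.32 (SE). Agpat2, an enzyme of triglyceride synthesis, was 384.0 ± 121 CPM with endostatin and 521.3 ± 158 CPM with PBS, a log2 fold change of -0.47 ± 0.21 (SE). Endostatin replicate 4 was the lowest library for Fasn. This gene, encoding fatty acid synthase and named after its values were seen, had 31890, 30490, 17220 and 1303 CPM in endostatin libraries, against 42370, 14070, 18350 and 27950 CPM in control libraries.

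**Figure D5:**
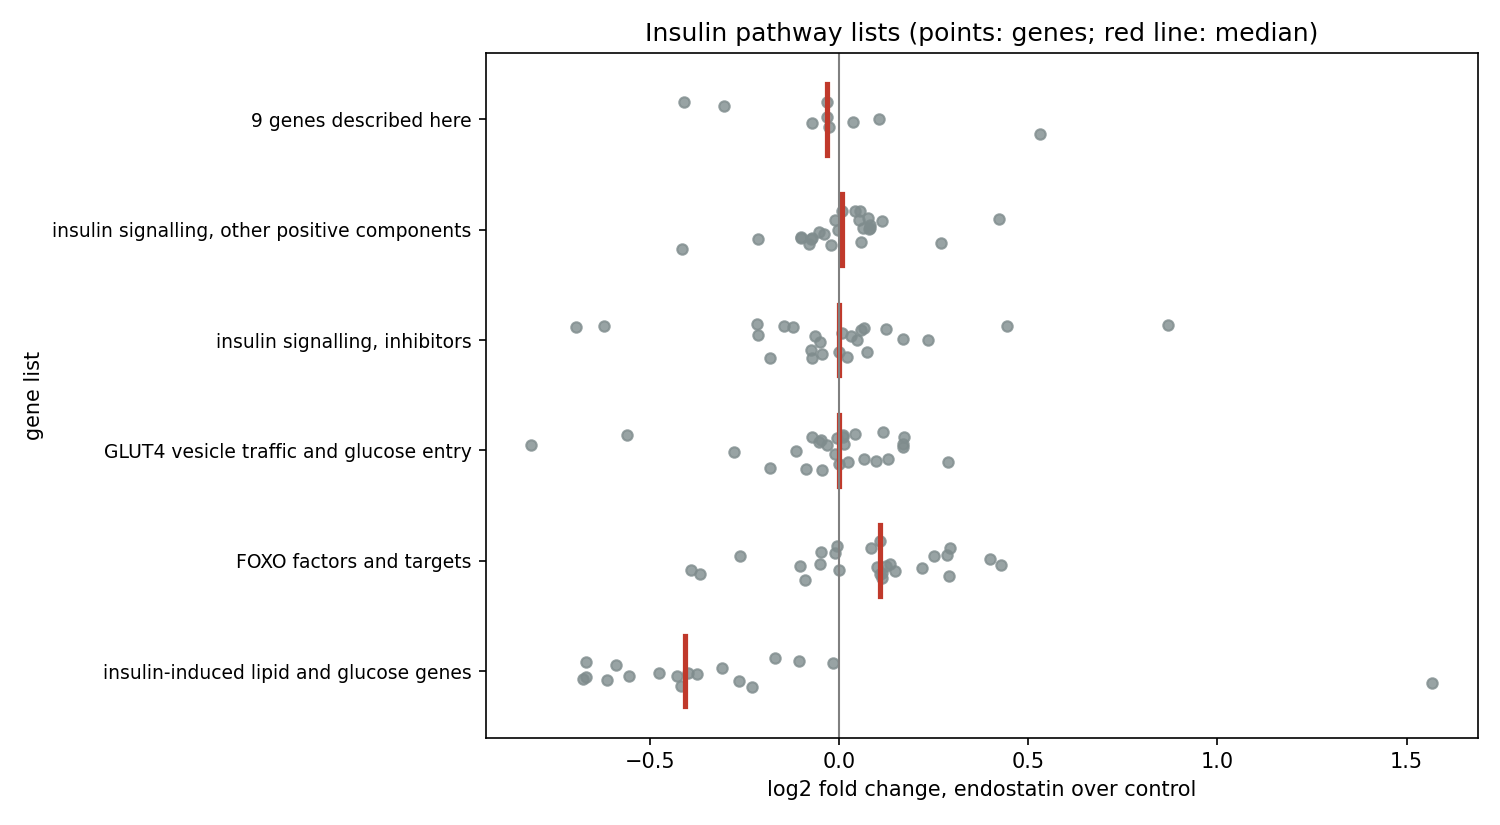
Log2 fold change, endostatin over control, of the 9 genes and of each tested gene in the 5 pathway lists, 1 point a gene, with each list's median as a red line. The medians lie close to 0 for the 9 genes and the first 3 lists, at 0.11 for FOXO factors and targets and at -0.41 for insulin-induced lipid and glucose genes.

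Batch 2 was set against batch 1 over both groups in the same fit. None of the 9 genes passed an adjusted p of 0.05 (edgeR), against 6 of 15184 tested genes, or 0.0395%. At an unadjusted p under 0.05, 0 of the 9 and 9.96% of all tested genes passed. The batch coefficients of the 9 ran from -0.35 for Slc2a4 to 0.17 ± 0.08 (SE) for Akt1, which had an unadjusted p of 0.0751 by edgeR.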

How the data were processed

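RNA-seq of 8 fat libraries was quantified with Salmon, with GRCm39 listed as the build, per the submitters' processing notes. The deposited values used were the authors' estimated counts and TPM per transcript, TPM being scaled to effective length and to a fixed total per library. Of 115620 transcripts listed, 113710 (98.35%) were matched by identifier to GENCODE M21 (GRCm38) and summed per gene. The 1910 not matched were kept as features of their own, within the total of 37046 gene-level features. Coordinates and exon sequence are those of GRCm38, which is not the build the submitters name. Promoter windows are RefSeq's, and those of Insr and Slc2a4 are not analysed here.

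Estimated counts were rounded and fitted with edgeR 4.0.16 (R 4.3.3) by the quasi-likelihood test with TMM scaling, filterByExpr (15184 genes) and batch plus treatment as terms, and p-values were adjusted by Benjamini-Hochberg over all genes tested. CPM are estimated counts scaled to the library total of the tested genes, adjusted by the TMM factors. Scaled to the unadjusted total of all listed transcripts, a count of 3 corresponds to 0.126 to 0.19 CPM per library. Transcript shares, and log2 TPM minus the mean log2(TPM + 0.1) of the 12 adipocyte markers, were compared by exact two-sided permutation tests over libraries (70 splits). These permutation tests took no account of batch. Alternatives used DESeq2 1.42.0 and limma 3.58.1, other scalings and filters, and left-out libraries. The fit was tested on simulated counts.

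The genes, the pathway and marker lists and the tests were chosen with earlier results of these data known. In each pathway list the text names up to 2 genes per direction, those with the lowest unadjusted p at a mean of at least 1 CPM. Others are said to be chosen after their values were seen or stand for a family member. Same-numbered libraries are not paired by the labels. The label text of endostatin replicate 4 repeats a read-file name of replicate 3, and the labelled groups were kept.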

Additional observations from a re-analysis of the deposited data

Results flagged for a closer look

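The difference of Irs1 between batches stood out: its log2 fold change in batch 2 minus that in batch 1 was -0.88 (edgeR interaction test, unadjusted p = 0.0110, adjusted p = 0.997). Both endostatin libraries lay above both controls in batch 1 and below them in batch 2. The cause was not tested. By Dixon's 95% limit, applied to CPM in the 18 groups of 4 libraries of the 9 genes, 0 groups held a library apart. The largest gap, 0.81 of the group's range, was that of control replicate 3 for Tbc1d4, and the gap of endostatin replicate 4 for Slc2a4 was 0.752 of the range. With 4 libraries the limit is passed only by gaps larger than these.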

How the results depend on the processing

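Irs2 stayed positive in 24 of 24 alternatives (0.36 to 0.66, unadjusted p 0.00591 to 0.0754, adjusted p 0.618 to 1.00) and Pik3r1 negative in 24 of 24 (-0.53 to -0.08). The other 7 genes changed sign in some. With DESeq2, 3 genes were higher and 1 lower, and with quality weights 1 was higher, none a member. Quality weights gave -0.017 for Insr, 0.11 for Irs1 and -0.15 for Akt2. On log2(TPM + 1) Irs1 was 0.00013, Akt1 0.021 and Tbc1d4 0.092, on log2(TPM + 0.1) they were 0.000175, 0.022 and 0.094, and with length offsets Tbc1d4 was 0.026. Without control replicate 3 and endostatin replicate 4, Insr was -0.085, Irs1 0.12, Akt1 0.020 and Akt2 -0.19. Without control replicates 1 and 4, Slc2a4 was 0.16, Foxo1 0.13, Tbc1d4 0.18, Akt1 0.0096, Insr 0.24 and Akt2 0.27. The causes were not tested.

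Leaving out 1 library at a time gave log2 fold changes of -0.027 to 0.19 for Insr, -0.18 to 0.11 for Irs1, -0.062 to 0.024 for Akt1, -0.14 to 0.14 for Akt2, -0.19 to 0.015 for Foxo1, -0.19 to 0.10 for Tbc1d4 and -0.48 to 0.0077 for Slc2a4. The sign turned without control replicate 3 or endostatin replicate 4 for Insr and Akt2, without control replicate 4 or endostatin replicate 3 or 4 for Irs1, and without endostatin replicate 4 for Akt1. It turned without control replicate 1 or 4 for Foxo1, without either of these or endostatin replicate 2 for Tbc1d4, and without control replicate 4 for Slc2a4. Relative to adipocyte markers the ranges were -0.019 to 0.34 for Akt1, -0.091 to 0.19 for Foxo1, -0.084 to 0.32 for Irs1, -0.31 to 0.027 for Slc2a4 and 0.57 to 0.73 for Irs2. Among settings chosen after the data were seen, the log2 marker sum gave -0.033 for Irs1, -0.012 for Akt1 and -0.060 for Foxo1, and the marker mean without Cidea gave -0.081 for Irs1, -0.060 for Akt1, -0.019 for Akt2 and -0.11 for Foxo1. Differences in transcript share ran, in percentage points, from -2.33 to 1.01 for Akt1-201, -1.52 to 0.94 for Akt2-201, -1.42 to 0.083 for Akt2-212, -2.25 to 2.66 for Insr-202, -1.14 to 3.0 for Pik3r1-202, -0.36 to 1.19 for Pik3r1-206, -1.90 to 3.78 for Tbc1d4-201 and -1.59 to 6.57 for Tbc1d4-206. As shares of estimated counts, Akt1-201 was 0.017, Insr-202 -0.15 and Pik3r1-202 -0.39 points.

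The shared replicate numbers did not pair the libraries: deviations of same-numbered libraries correlated at 0.211, 0.144, -0.073 and -0.295, and 2 of 8 libraries correlated best with their own number. With the replicate block, 0 genes passed the adjusted threshold, 220 higher and 87 lower passed an unadjusted p of 0.05 by edgeR, and Irs2 was 0.55.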
